A study of Mus musculus with 12 samples.

Results

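Carbonic anhydrases are zinc enzymes that interconvert carbon dioxide and bicarbonate with release of a proton. Their genes were followed over 1 circadian day in mouse urinary bladder by reading every array probe named for Car2, Car3, Car4, Car5b, Car8, Car9, Car11, Car12, Car13 or Car14. The 10 genes had 14 probes of 41174 on the array, and all 10 genes passed the filter for testing. Total RNA came from the whole bladder of wild-type C57BL/6 female mice aged 10 weeks. All mice had spent 2 weeks in a cycle of 12 h light and 12 h dark before the switch to constant darkness. Bladders were taken at CT0, CT4, CT8, CT12, CT16 and CT20, where CT is circadian time in hours, with 2 single-colour arrays for each time and no other treatment. The labels state neither how long darkness had lasted nor whether an array held 1 mouse, so the p-values measure only the spread between arrays.

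The family differs in where each enzyme works. Car2, Car3 and Car13 are cytosolic, Car5b is mitochondrial, Car4 is anchored to the outer membrane surface, and Car9, Car12 and Car14 span the membrane with their catalytic domain outside. Car8 and Car11 lack residues that hold the catalytic zinc and are known as carbonic anhydrase related proteins. Working with bicarbonate carriers and proton pumps, the active enzymes help to set pH inside and outside cells, and the clock is known to drive rhythms in many tissues through E-box and D-box elements in promoters.

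All levels below are log2 signals relative to the 75th percentile of the same array, so 0 equals that percentile and 1 is a doubling of it. That percentile lay between 844 and 984 intensity units, 64.2% to 70.2% of spots per array were well above background, and 0 spots were saturated. Between the 2 arrays of a time, the SD of the log2 difference across genes was 0.391 to 0.589. The tissue's defining markers were present: all 11 urothelial and all 10 smooth muscle markers tested were well above background on every array. Of the 14 probes, 11 were well above background on all 12 arrays, the Car4 probe was so on 6 arrays, and the second probes of Car5b and Car12 were so on 0 arrays. Levels of different probes cannot be ranked against each other.

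The promoters of 6 of the 10 genes were in the RefSeq table of GRCm38.p6, in 7 windows of 250 bases upstream of the start. The window of Car14 and the first of Car11 are shown because these genes had the smallest wave p-values. That of Car9 is shown because it alone of the other windows holds the same core as Car14. Capitals mark ACGTG, read on either strand as ACGTG or CACGT, letters found in both the E-box and the hypoxia response element. Each is written 5′ to 3′ on the strand of its gene.
Car14, chr3:95904686-95904935, minus strand: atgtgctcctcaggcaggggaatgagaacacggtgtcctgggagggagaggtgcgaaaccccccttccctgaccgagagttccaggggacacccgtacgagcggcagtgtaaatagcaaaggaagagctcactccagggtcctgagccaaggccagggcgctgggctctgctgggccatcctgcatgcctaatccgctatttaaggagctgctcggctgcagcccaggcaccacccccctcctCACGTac
Car11, chr7:45699554-45699803, plus strand: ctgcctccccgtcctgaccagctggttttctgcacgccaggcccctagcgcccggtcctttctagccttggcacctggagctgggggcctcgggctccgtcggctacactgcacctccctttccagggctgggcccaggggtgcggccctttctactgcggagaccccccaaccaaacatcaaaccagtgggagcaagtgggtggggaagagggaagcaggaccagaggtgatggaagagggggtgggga
Car9, chr4:43506776-43507025, plus strand: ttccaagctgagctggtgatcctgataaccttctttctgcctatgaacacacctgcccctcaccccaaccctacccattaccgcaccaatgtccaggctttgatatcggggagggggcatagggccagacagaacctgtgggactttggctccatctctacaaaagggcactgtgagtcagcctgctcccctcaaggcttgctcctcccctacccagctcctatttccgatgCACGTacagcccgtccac
In the Car14 window the first base of the match lay at -7 from the start, and in the Car9 window at -18. Car11 had a second window, chr7:45699717-45699966, and neither of its windows held a match. The letters ACGTG occur in 16.6% of all 32851 windows of this length. The E-box CACGTG, read on either strand, occurs in 6.02% of all windows and in 0 of the 7 of this family. The D-box letters TTATGTAA, in 0.819% of windows on either strand, and TTACGTAA, in 0.113%, were likewise in 0 of the 7. The nuclear receptor half-site AGGTCA (14.0% of windows, either strand) was in 0 of the 7. The GC box GGGCGG (32.7%, either strand) was in 2, those of Car12 and Car5b. A missing match says only that these letters are not in these windows.

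Over the circadian day, Car14 was the family member with a wave past the threshold. Its signal was about 3.5 times as high at the fitted peak near the start of subjective night as at the trough, and its non-catalytic relative Car11 had a smaller fitted wave at nearly the same time that missed the threshold. Of the 10 genes, 1 passed limma's moderated F-test for a wave of 24 h after Benjamini-Hochberg adjustment over all 18394 genes, of which 0.620% passed. At an unadjusted p under 0.05, 4 of the 10 (40.0%) and 15.7% of all genes passed. The median fitted amplitude, which is the log2 distance of the peak from the mean, was 0.35 for the 10 genes and 0.12 for all genes tested. An amplitude cannot be negative and grows with the spread between arrays. For Car2, Car3, Car4, Car5b, Car8 and Car12 the widest gap within a time was 0.92 to 1.69, against a median of 0.38 over all genes. The 2 medians are therefore no comparison of rhythm alone.

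Car14 encodes a membrane-spanning enzyme with an outer catalytic domain (probe at chr3:95771886-95771945, mm7). Its levels were -1.16 and -1.34 at CT0, -0.85 and -1.28 at CT4, 0.58 and 0.19 at CT8, -0.10 and 0.35 at CT12, 0.64 and 0.10 at CT16, and -0.88 and -0.83 at CT20. The 6 arrays of CT8, CT12 and CT16 were all above the 6 of CT20, CT0 and CT4, with means of 0.29 ± 0.29 and -1.06 ± 0.23 (SD, n = 6 each). The difference of 1.35 is 2.55-fold and carries no test, since these spans of the day were chosen after the values were seen; 86 genes (0.468%) had the same lack of overlap. In a bulk sample, a change in cells of a type and a change in RNA per cell cannot be told apart.

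The fitted Car14 wave had an amplitude of 0.91 ± 0.14 (SE, 12 arrays) and peaked at CT12.2 ± 0.58 h. Its peak was 3.51-fold above its trough, with a range of 2.90 to 4.25 for 1 SE (limma adjusted p = 0.0387). The test for any difference between the 6 times gave an adjusted p of 0.0879, where 0.0924% of all genes passed and 0 of the 10 family members did; Car14, Car11 and 19.0% of all genes had an unadjusted p under 0.05. At CT12, Car14 averaged 0.13 ± 0.32, against -1.25 ± 0.13 at CT0 (SD, n = 2 each), a difference of 1.38 ± 0.24 (SE, limma adjusted p = 0.137). With the share of all genes past the threshold in this contrast at 0.196%, 0 of the 10 members passed; at an unadjusted p under 0.05 Car14, Car11 and Car3 did, as did 10.7% of all genes.

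The Car14 call sat close to the threshold. With 1 array left out it held without CT8 replicate 1 (limma adjusted p = 0.0422) or CT12 replicate 1 (0.0172), and without any other single array it ranged from 0.0592 without CT16 replicate 1 to 0.0867 without CT12 replicate 2, while the amplitude stayed between 0.85 and 1.04. Time and slide were linked: slide 1 held the arrays of CT0 and CT4, slide 2 those of CT8 and CT12, and slide 3 those of CT16 and CT20. Within slides, Car14 averaged -1.06 at CT4 and -1.25 at CT0, 0.13 at CT12 and 0.38 at CT8, and -0.86 at CT20 and 0.37 at CT16. On slide 3 the Car14 mean dropped by 1.23 log2 units, with no test of this step, and both CT20 arrays were below both CT16 arrays, as they were for 27.5% of all genes. CT12 and CT0 were on different slides, so that time and slide cannot be told apart in that contrast. Fitted with a fixed slide block, Car14 had a 3.18-fold wave at CT10.8 (adjusted p = 0.355), and with a random one a 3.43-fold wave at CT12.1 (adjusted p = 0.151).

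Car11, whose protein is a carbonic anhydrase related protein without catalytic activity, was measured by a probe at chr7:41879600-41879659 (mm7). It had -1.05 and -1.64 at CT0, -1.08 and -1.06 at CT4, -0.64 and -0.91 at CT8, -0.43 and -0.67 at CT12, -0.50 and -0.80 at CT16, and -0.83 and -0.97 at CT20. The highest arrays were at CT12 and CT16 and the lowest at CT0, but 1 array at CT8 lay below 1 at CT20, so these spans of the day overlapped. The fitted wave was 1.66-fold (range 1.50 to 1.85 for 1 SE), with an amplitude of 0.37 ± 0.08 and a peak at CT12.9 ± 0.80 h (limma adjusted p = 0.102, unadjusted p = 0.00207). Car11 averaged -0.55 ± 0.17 at CT12, against -1.34 ± 0.42 at CT0 (SD, n = 2 each), a difference of 0.80 ± 0.20 (SE, limma adjusted p = 0.271). Within slides, Car11 was 0.27 higher at CT4 than at CT0, 0.23 higher at CT12 than at CT8 and 0.25 lower at CT20 than at CT16 in the means, with no test of these steps.

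**Figure D1:**
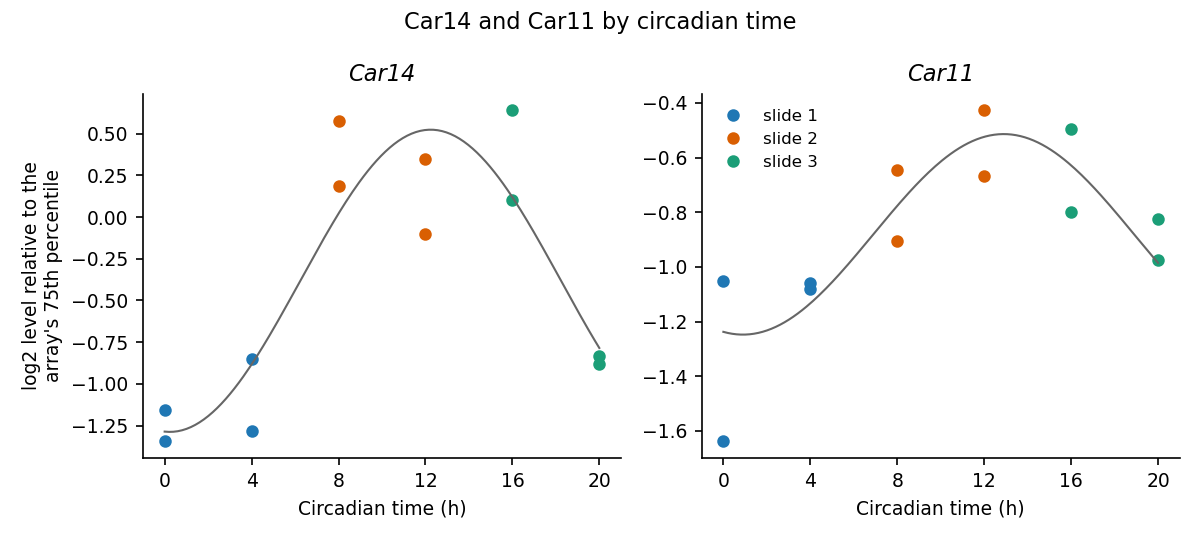
Log2 level of Car14 (left) and Car11 (right) relative to the 75th percentile of each array, against circadian time in hours. Points are single arrays coloured by slide and lines are the fitted 24 h waves; the 6 Car14 arrays of CT8 to CT16 lie between -0.10 and 0.64, above the other 6, which lie between -1.34 and -0.83.

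Car12 encodes another membrane-spanning enzyme with an outer catalytic domain (probe at chr9:66797695-66797754, mm7). It had -2.78 and -3.61 at CT0, -2.96 and -2.40 at CT4, -3.82 and -2.57 at CT8, -3.86 and -3.53 at CT12, -4.49 and -3.70 at CT16, and -3.19 and -2.91 at CT20. Mean levels were lowest at CT16 and highest at CT4, but the 2 arrays of CT8 were 1.24 apart. The fitted wave was 2.18-fold (range 1.68 to 2.83 for 1 SE) with a peak at CT2.7 ± 1.28 h, and it missed the threshold (limma adjusted p = 0.292, unadjusted p = 0.0386). On slide 3 the Car12 mean was -3.05 ± 0.20 at CT20, against -4.10 ± 0.56 at CT16 (SD, n = 2 each), with no test of this step. Both CT20 arrays were above both CT16 arrays, as they were for 25.3% of all genes. The second Car12 probe was above background on 0 of 12 arrays and gives no second reading.

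Car9, a membrane enzyme known as a target of the hypoxia factor HIF-1, varied little (probe at chr4:43526965-43527024, mm7). It had -3.54 and -3.41 at CT0, -3.44 and -3.38 at CT4, -3.27 and -3.25 at CT8, -3.40 and -3.30 at CT12, -3.59 and -3.55 at CT16, and -3.40 and -3.35 at CT20. The highest and lowest of the 12 arrays were 1.27-fold apart. Its means ran from -3.57 at CT16 to -3.26 at CT8. The fitted wave was 1.13-fold (limma adjusted p = 0.488), and limma's test for any difference between times gave an adjusted p of 0.266.

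Car4, anchored to the outer membrane and known from capillary endothelium, was at the edge of detection (probe at chr11:85034716-85034775, mm7). It was well above background on 1 of 2 arrays at CT0, CT4, CT8 and CT16, on 2 of 2 at CT12 and on 0 of 2 at CT20. Its levels ran from -7.10 to -4.89 with a median of -6.24, and arrays of one time differed by up to 1.69. No fold is given, because values not well above background are only bounds. The wave fit gave a limma adjusted p of 0.745. The 11 capillary endothelial markers tested were well above background on all arrays. With limma 0 of them passed the wave test and 3 had an unadjusted p under 0.05, beside 0.620% and 15.7% of all genes.

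Of the cytosolic enzymes, Car3 had the widest swings. Car3 is a slow enzyme known for its abundance in fat, liver and slow muscle fibres (probe at chr3:14893376-14893435, mm7). It had 5.02 and 4.12 at CT0, 5.89 and 4.26 at CT4, 5.04 and 5.02 at CT8, 5.47 and 6.19 at CT12, 5.46 and 5.28 at CT16, and 4.82 and 5.21 at CT20. The 2 arrays of CT4 were 1.63 apart, more than the means of any 2 times. The fitted wave was 1.94-fold (range 1.48 to 2.55 for 1 SE) at CT12.6 ± 1.57 h (limma adjusted p = 0.393). Car3 averaged 5.83 ± 0.51 at CT12, against 4.57 ± 0.64 at CT0 (SD, n = 2 each), a difference of 1.26 ± 0.52 (SE, limma adjusted p = 0.454).

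A second Car3 probe lay at chr3:14886326-14886385 (mm7). It had -0.36 and -1.66 at CT0, 0.69 and -1.90 at CT4, -0.79 and -0.26 at CT8, 0.17 and 0.26 at CT12, -0.37 and -0.06 at CT16, and -0.55 and -0.11 at CT20. Its lowest arrays were the same 2 as for the first probe, CT0 replicate 2 and CT4 replicate 2. Across the 12 arrays the 2 probes correlated at r = 0.911, a description of 2 readings of the same RNA. With every probe fitted in its own row, the second probe had a 1.92-fold fitted wave at CT13.4 (limma adjusted p = 0.556 over 27699 probes).

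Adipocyte markers also varied between arrays, in part along with Car3. Their summed linear signal, in multiples of the 75th percentile and over 12 genes, was 608.3 and 262.4 at CT0, 797.4 and 415.4 at CT4, 438.6 and 504.8 at CT8, 428.7 and 824.7 at CT12, 565.3 and 546.7 at CT16, and 351.8 and 445.9 at CT20. CT0 replicate 2 was lowest for the main Car3 probe and for the markers. CT4 replicate 1 and CT12 replicate 2 were the highest 2 for both. The second Car3 probe was lowest on CT4 replicate 2 (-1.90), where the marker sum was 415.4. Not all arrays matched in the sum, since CT12 replicate 1 had 5.47 for Car3 and a marker sum of only 428.7. The mean of the 12 genes, each centred on its own mean, was 0.14 on that array. Fabp4 and Cfd, with the largest medians of 7.79 and 7.41, weighed most in the sum, and Fabp4 varied little (SD 0.27). Of the 12 markers, 11 were well above background on all arrays, and the median amplitude was 0.67. With limma 0 of the 12 passed the wave test and 1 had an unadjusted p under 0.05, beside 0.620% and 15.7% of all genes. With the markers' mean level as a covariate, an alternative added after the values were seen, the fitted Car3 amplitude was 0.28 ± 0.11, against 0.48 ± 0.20 without it (SE). The fitted Car3 peak lay at CT15.8 with the covariate and at CT12.6 without it, and the limma adjusted p was 0.408 with it. The markers' part in the Car3 values was not tested further. For Car14 the same covariate gave an amplitude of 0.90 ± 0.17 (SE, limma adjusted p = 0.108), against 0.91 without it.

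**Figure D2:**
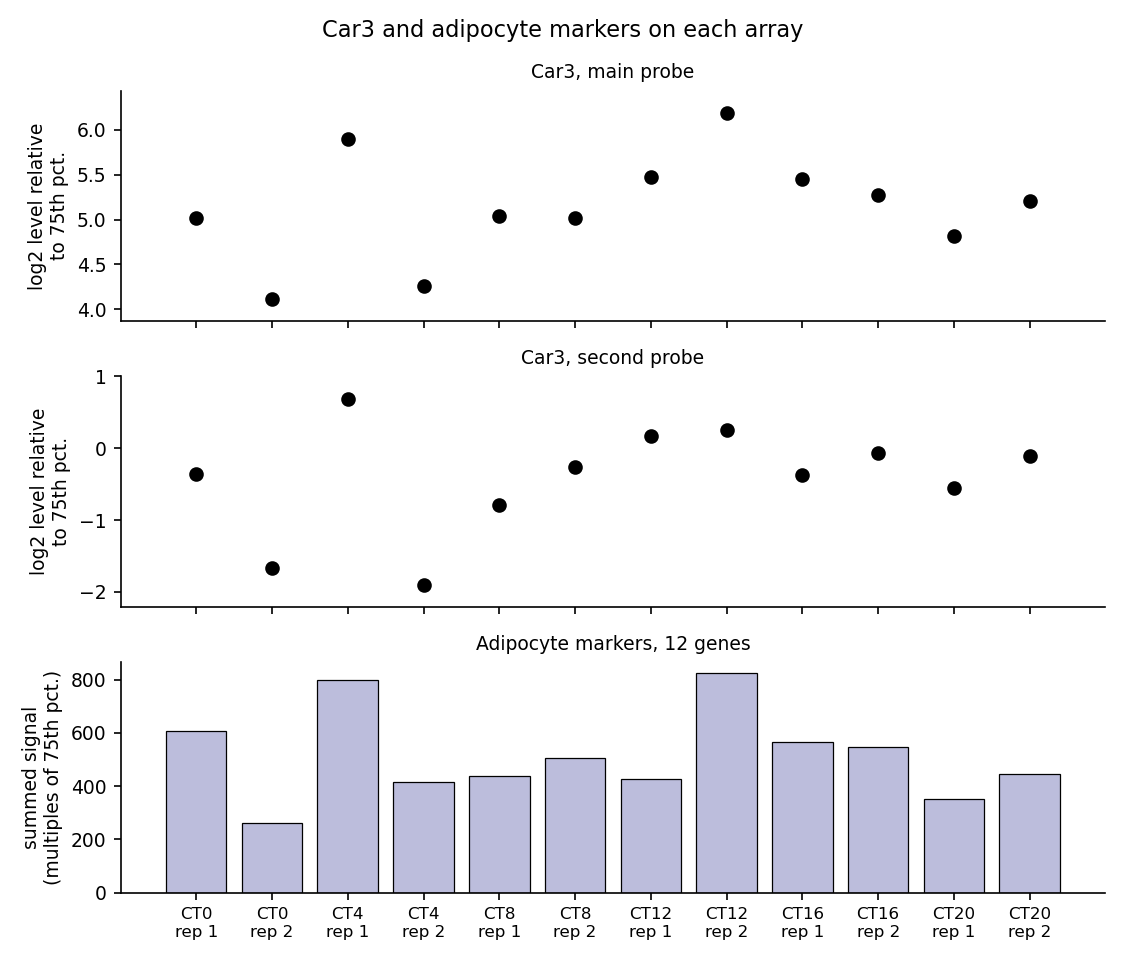
Log2 level of the main Car3 probe (top) and the second Car3 probe (middle), and the summed linear signal of 12 adipocyte markers in multiples of the 75th percentile (bottom), for each of the 12 arrays. CT0 replicate 2 is the lowest array for the main probe at 4.12 and for the markers at 262.4.

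Slow and cardiac muscle markers, the other named source tissue of Car3 that a bladder sample might hold, ran in sum over 9 tested genes from 101.3 to 137.2. Tnnt2 and Actc1, with medians of 5.82 and 6.02, made up most of that sum. The mean of the 9 genes, each centred on its own mean, ran from -0.73 on CT20 replicate 1 to 0.68 on CT4 replicate 1, and Myl3 from -5.63 to -0.21. Of the 9 genes, 0 passed limma's wave test and 4 had an unadjusted p under 0.05, beside 0.620% and 15.7% of all genes. Their part in the Car3 values was not tested. For hepatocyte markers the sum over 12 genes was 62.0 on CT12 replicate 2 and 64.5 on CT20 replicate 2, and 14.8 to 26.1 on the other 10 arrays. Trf had the largest median of the 12, 3.63, and varied little (SD 0.205). The mean of the 12 genes, each centred on its own mean, was 2.35 and 2.61 on these 2 arrays. On the other 10 it ran from -2.10 on CT20 replicate 1 to 0.95 on CT0 replicate 2. Without CT12 replicate 2 and CT20 replicate 2, an alternative added after the values were seen, the Car3 amplitude was 0.37 ± 0.22 (SE). Without them Car14 had an amplitude of 0.94 ± 0.17 (SE) and a limma adjusted p of 0.142. At CT20, Car14 was -0.88 and -0.83 on arrays whose hepatocyte sums were 14.8 and 64.5. At CT12, it was -0.10 and 0.35 on arrays whose sums were 16.55 and 62.0. The part of the hepatocyte markers in the Car14 values was not tested.

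Car2, the fast and widespread cytosolic enzyme, had a fitted wave that missed the threshold (probe at chr3:14921801-14921860, mm7). It had 1.19 and 0.27 at CT0, 1.12 and 1.07 at CT4, 0.84 and 1.53 at CT8, 0.79 and 0.81 at CT12, 0.38 and 0.65 at CT16, and 0.56 and 0.68 at CT20. The highest array was at CT8 and the lowest at CT0, whose 2 arrays were 0.92 apart. The fitted wave was 1.59-fold (range 1.36 to 1.85 for 1 SE) at CT6.2 ± 1.26 h (limma adjusted p = 0.286, unadjusted p = 0.0361). Red blood cells are rich in this enzyme, and the 4 red cell markers tested summed to 50.4 to 105.4 per array. Of these 4, 0 passed limma's wave test and 0 had an unadjusted p under 0.05, beside 0.620% and 15.7% of all genes. Their part in the Car2 values was not tested.

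Car13, also a cytosolic enzyme, varied little too (probe at chr3:14664364-14664423, mm7). It had 1.10 and 0.88 at CT0, 1.03 and 1.03 at CT4, 1.08 and 1.20 at CT8, 0.85 and 1.09 at CT12, 0.88 and 0.85 at CT16, and 1.01 and 1.05 at CT20. All 12 arrays lay within 1.28-fold of each other. Its fitted wave of 1.12-fold did not pass (limma adjusted p = 0.584).

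Car5b, the mitochondrial enzyme, varied as much between arrays of one time as over the day (probe at chrX:158753515-158753574, mm7). It had -0.50 and -1.10 at CT0, 0.06 and -0.81 at CT4, -0.39 and -0.46 at CT8, -1.24 and -0.26 at CT12, -0.52 and -0.42 at CT16, and -0.78 and -0.59 at CT20. Arrays of one time differed by up to 0.98, more than the means of any 2 times, and the fitted wave was 1.17-fold (limma adjusted p = 0.870). The second Car5b probe was above background on 0 of 12 arrays.

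Car8, the other member without catalytic activity, is known to bind the inositol trisphosphate receptor Itpr1 (probe at chr4:8072704-8072763, mm7). It had -2.69 and -2.96 at CT0, -2.76 and -2.53 at CT4, -3.81 and -2.58 at CT8, -3.04 and -2.80 at CT12, -3.52 and -3.14 at CT16, and -3.80 and -3.70 at CT20. Levels were highest at CT4 and low at CT20, but CT8 replicate 1 was as low as the CT20 arrays and 1.22 below its partner. The fitted wave was 1.66-fold (range 1.32 to 2.08 for 1 SE) at CT5.4 ± 1.72 h (limma adjusted p = 0.436). A second Car8 probe ran from -4.01 to -2.70, was likewise low on CT8 replicate 1 (-4.01, against -2.70 on its partner), and followed the first at r = 0.984 over the 12 arrays. Its fitted wave was 1.58-fold at CT6.4 (limma adjusted p = 0.488).

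**Figure D3:**
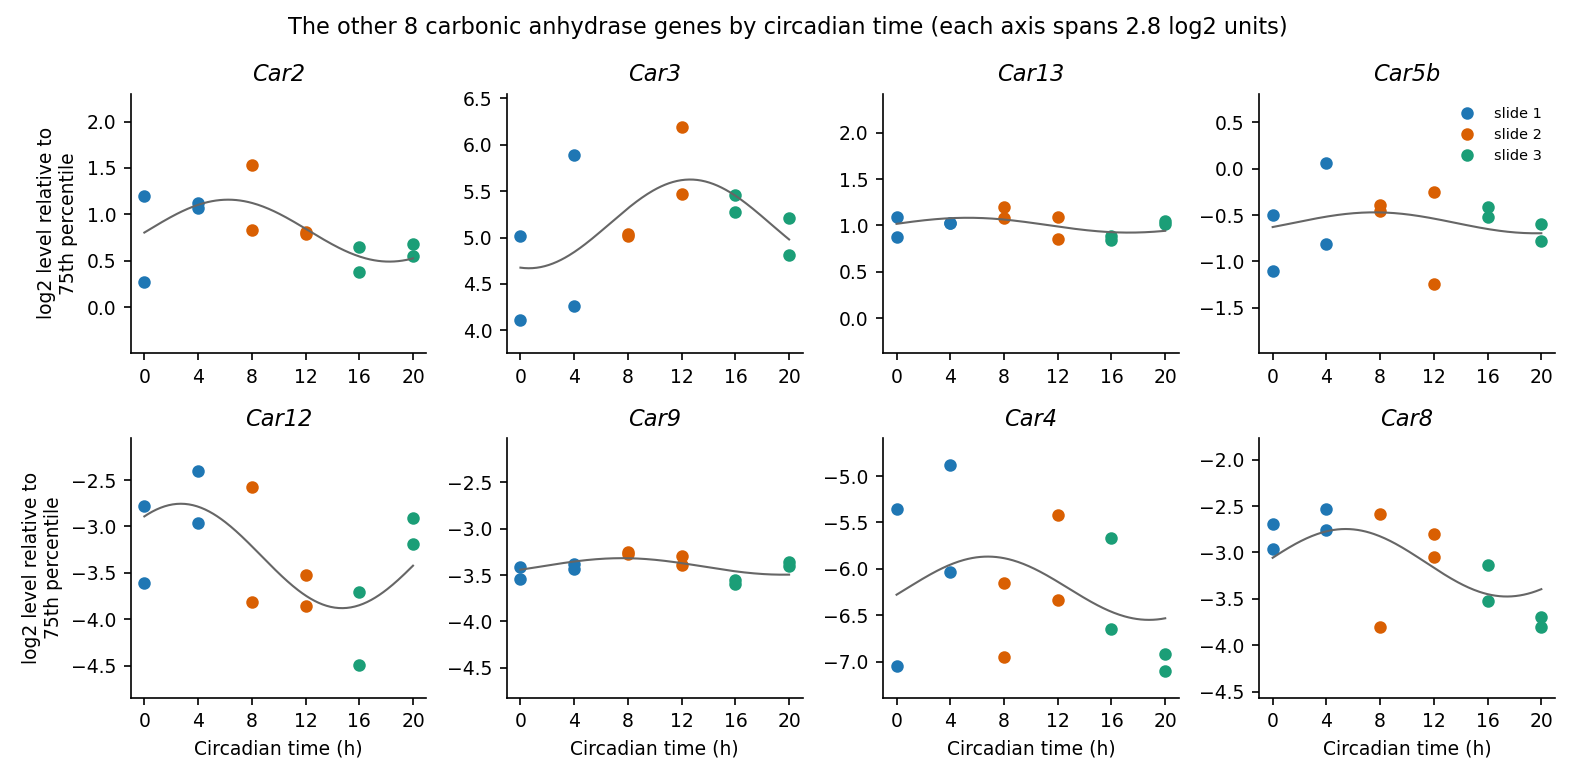
Log2 level of the other 8 carbonic anhydrase genes relative to the 75th percentile of each array, against circadian time in hours, 1 panel a gene with axes of equal span. Points are single arrays coloured by slide and lines are fitted 24 h waves; Car9 and Car13 are nearly flat, while arrays of one time lie up to 1.63 apart for Car3 and 1.24 for Car12.

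The members differed in the spread between the 2 arrays of a time. The widest gap between arrays of one time was 0.13 for Car9, 0.24 for Car13, 0.54 for Car14 and 0.59 for Car11, against a median of 0.38 over all genes. For Car2, Car3, Car4, Car5b, Car8 and Car12 it was 0.92 to 1.69. With every probe in its own row, 1 of the 12 member probes tested passed, that of Car14 (limma adjusted p = 0.0329), where 0.801% of all 27699 probes passed.

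**Figure D4:**
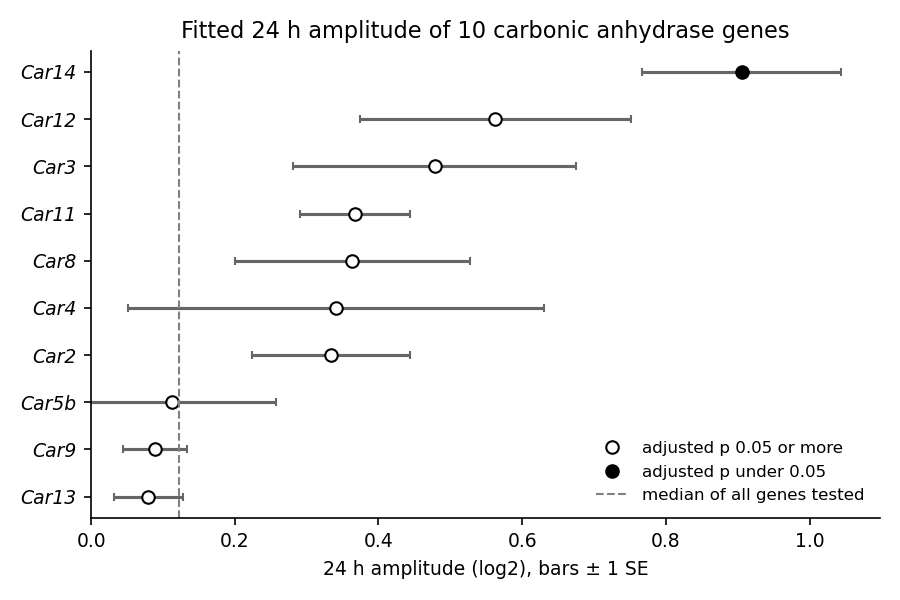
Fitted 24 h amplitude (log2) of the 10 carbonic anhydrase genes with bars of 1 SE, in order of size. The filled point is Car14, the gene with an adjusted p under 0.05, at 0.91; the dashed line is the median of all genes tested, 0.12.

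Car14 and Car11 each lie near a clock gene with a large wave. In the gene order of GRCm38.p6, Ciart, a repressor of the clock activator BMAL1, is the third gene from Car14, and the mm7 probes of both are 19.4 kb apart. Dbp, a transcription factor gene that the clock drives, is next to Car11, with probes 6.57 kb apart. Ciart had a 50.2-fold wave at CT9.8 ± 0.27 h (limma adjusted p = 0.000306) and Dbp an 18.1-fold wave at CT9.5 ± 0.20 h (limma adjusted p = 2.3e-05). The fitted peaks of Car14 and Car11, at CT12.2 ± 0.58 h and CT12.9 ± 0.80 h, were later, but the differences in peak time were not tested.

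Genes between and around them did not pass. Aph1a, a gamma-secretase subunit gene whose probe is 0.98 kb from that of Car14, had a 1.73-fold fitted wave at CT8.3 (limma adjusted p = 0.334). BC028528, which lies between Aph1a and Ciart, had a 1.48-fold fitted wave (adjusted p = 0.151), and Anp32e on the other side a 1.37-fold one (0.267). Next to Dbp, the sphingosine kinase gene Sphk2 had a 1.27-fold fitted wave (adjusted p = 0.322) and the ribosomal protein gene Rpl18 a 1.14-fold one (0.372). Over all 10 members, the 3 genes on either side made 49 neighbours, of which 43 were tested. Ciart and Dbp were the 2 that passed the wave test, which 0.620% of all genes passed, and the median amplitude of the 43 was 0.12. The neighbours were looked up after values were seen, so this count carries no test. The genes Car13, Car1, Car3 and Car2 form a cluster on chromosome 3. With limma 0 of the 4 passed and Car2 alone had an unadjusted p under 0.05, beside 0.620% and 15.7% of all genes.

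**Figure D5:**
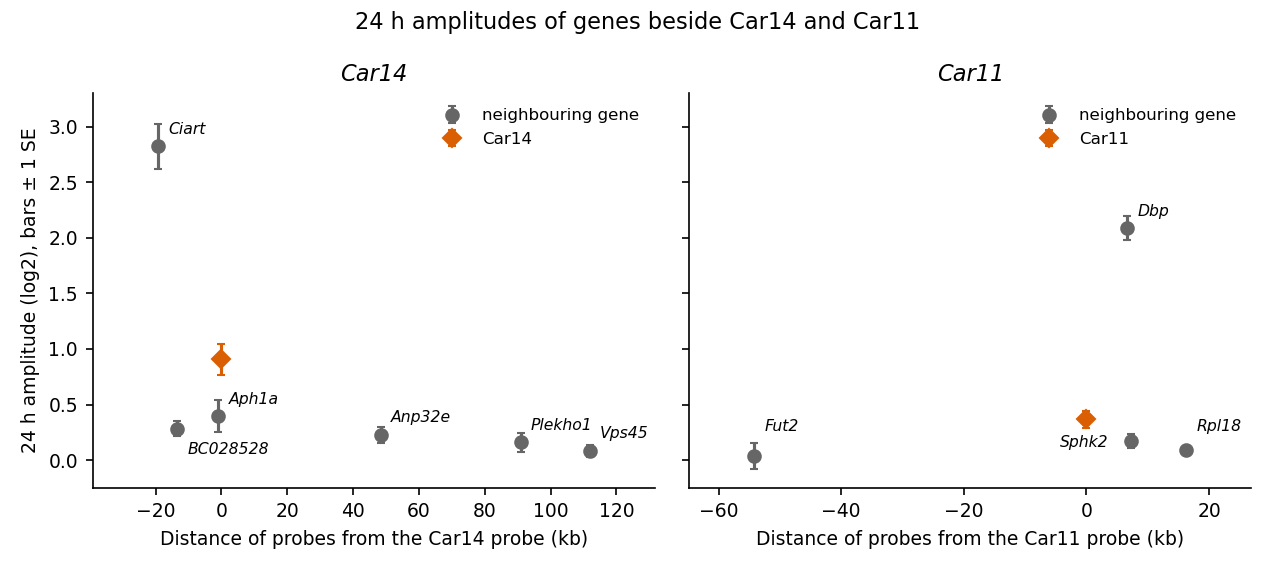
Fitted 24 h amplitude (log2, bars of 1 SE) of genes beside Car14 (left) and Car11 (right) against the distance of their probes in kb. Ciart at 2.82 and Dbp at 2.09 stand far above Car14 at 0.91 and Car11 at 0.37, and the other neighbours lie below 0.40.

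The genes most like each of the 3 members of largest SD among those well above background on all 12 arrays, which leaves out Car4, were found by Pearson's r. It was taken over the 12 arrays among 16543 genes, as a description only, since all values share the same arrays and scaling. For Car14 they were the deubiquitinase gene Usp2 (r = 0.954), the Ras-like GTPase gene Rhebl1 (0.937) and the unnamed transcript TC1410512 (0.932). Usp2 itself had a wave peaking at CT11.4 (limma adjusted p = 0.00251), and so did TC1410512 (limma adjusted p = 0.0379). Rhebl1 missed the threshold (limma adjusted p = 0.0941). The Car14 neighbour Ciart ranked only at place 210 in likeness to Car14 (r = 0.743). For Car12 the most like genes were Oasl1 (r = 0.932), Lad1 (0.930) and Ssh3 (0.921), none of which passed the wave test (adjusted p = 0.301 to 0.464). For Car3 they were Mfng (r = 0.954), Arxes2 (0.951) and Tmem120b (0.938), with adjusted p-values of 0.415 to 0.540.

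Lists of genes that work with the carbonic anhydrases in acid and base transport were counted beside all genes, of which 0.620% passed the wave test and 15.7% had an unadjusted p under 0.05. At that share a count of 0 in lists of this size says nothing particular about them. Of 18 bicarbonate and chloride transporter genes tested, 0 passed and 5 were at an unadjusted p under 0.05. Their median amplitude was 0.27, against 0.12 for all genes, but only 9 of the 18 were well above background on all arrays. Fitted amplitudes cannot be negative and grow with noise, so this difference is no measure of rhythm in the list. The largest fitted wave among those above background on all arrays was that of the bicarbonate cotransporter gene Slc4a7 (2.82-fold at CT17.1, limma adjusted p = 0.538). Slc26a11, an anion transporter gene, had a 1.32-fold fitted wave (adjusted p = 0.245). Of 12 sodium-proton exchange genes, 0 passed and 1 was under 0.05 unadjusted, namely the exchanger gene Slc9a9 (1.78-fold at CT5.2, adjusted p = 0.260). Chp2, a cofactor of the exchangers, had a 1.50-fold fitted wave (adjusted p = 0.325).

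Of 24 proton pump subunit genes, 0 passed and 7 were under 0.05 unadjusted, beside 0.620% and 15.7% of all genes; the median amplitude was 0.12, as over all genes. Among them Atp6v0a4 had a 1.34-fold fitted wave (limma adjusted p = 0.735) and Atp6v0e2 a 1.33-fold one (0.356). Of 6 lactate-proton transport genes, 0 passed and 1 was under 0.05 unadjusted, with 1.72-fold for the transporter chaperone Emb (adjusted p = 0.210) and 1.23-fold for the lactate carrier Slc16a8 (0.654). Of 20 hypoxia response genes, the set to which Car9 is known to belong, 0 passed and 3 were under 0.05 unadjusted. Bnip3, a mitophagy gene, had a 1.61-fold fitted wave at CT10.1 (adjusted p = 0.192), and the vasodilator peptide gene Adm a 1.54-fold one at CT17.3 (0.428). Of the 3 tested genes of bicarbonate sensing and the Car8 partners, 0 passed and 0 were under 0.05 unadjusted, with 1.26-fold for Itpr1 (adjusted p = 0.519) and 1.16-fold for Itpr2 (0.631). All 11 clock and output genes chosen for phase passed, with a median amplitude of 1.13; they were listed with earlier results of these data known and are no independent evidence.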

How the data were processed

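Agilent Feature Extraction 10.5.1.1 made the deposited intensity per spot, per the file headers, background-subtracted and detrended within each array but not normalised between arrays. Deposited flags (well above background, outlier) came from the same software, per the file headers. The authors' deposited value table holds log2 values for 27883 probes; its normalisation is not given in the sources used here, the submitters' processing notes name R 2.8.1, and it served as an alternative.

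Log2 processed signals were averaged per probe without outlier spots and scaled by each array's 75th percentile. Probes lacking a value on some array (271) were dropped. Each gene took its probe of highest mean level, and 18394 genes well above background on at least 4 of 12 arrays were tested. Waves of 24 h (9 residual degrees of freedom), a 1-way fit over the times (6) and CT12 minus CT0 were fitted with limma 3.58.1 (R 4.3.3), with Benjamini-Hochberg adjustment across the genes tested and a threshold of 0.05. Wave folds are peak over trough of the fitted curve, and SEs of amplitude and peak are delta-method values. Gene names, gene order and promoters came from RefSeq, GRCm38.p6; probe coordinates are on mm7, whose annotation was not used here. The fits were tested on data simulated in R, with the outcome not given here. Signals were read and fits summarised in Python 3.11.15 with numpy 2.4.6.

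The members and lists were chosen with earlier results of these data known. Named were every member with each of its probes, the listed pathway genes past the wave threshold or otherwise the 2 of largest amplitude above background on all arrays, and the 3 genes most like each of the 3 members of largest SD among those above background on all arrays. The clock and output genes were an exception, since of them only Ciart and Dbp were named, as neighbours. The neighbours, and the letters searched in promoters, were added after values were seen. Alternatives changed the background correction, the scaling, the dim-probe filter, the probes used, the blocks (slide, replicate number) and the arrays left out, or took the authors' table. The number of arrays limits the precision.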

Additional observations from a re-analysis of the deposited data

How the results depend on the processing

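With 1 array left out, the number of genes with a 24 h wave was 42, without CT16 replicate 1, to 104 (114 with all arrays), any-difference genes numbered 7 without CT12 replicate 2 to 137 without CT0 replicate 1 (17 with all), CT12 minus CT0 genes 4 to 177 without the same arrays (36 with all), and carbonic anhydrase genes and probes with a wave 0 to 1 (1). Wave genes numbered 62 with median scaling, 50 with no filter on dim probes, 222 with every probe in its own row, 2 with slide as a fixed block, 28 with a random slide block, 28 when the 2 hepatocyte-high arrays were left out and 63 with the adipocyte covariate. The Car14 call was lost with median scaling (limma adjusted p = 0.0603), no filter (0.0758), slide as a fixed (0.355) or random block (0.151), the hepatocyte-high arrays left out (0.142) and the adipocyte covariate (0.108), so that 0 members passed in each; the last 2 alternatives were chosen after seeing the data. It held with normexp, quantile scaling, the authors' table, the filter on all 12 arrays and every probe in its own row (0.0189 to 0.0336). Its any-difference test passed with normexp (0.0460) and the authors' table (0.0461). In the fit of every probe, 0 member probes passed with slide as a fixed or random block, no filter or median scaling. Any-difference genes numbered 48 with normexp, 46 in the authors' table and 36 with the filter on all 12 arrays. With slide as a fixed block the number was 0, but from a narrower test. That fit can compare only CT4 with CT0, CT12 with CT8 and CT20 with CT16, so its 0 is not comparable with the other counts. CT12 minus CT0 genes numbered 13 with no filter. Median scaling shifted arrays by -0.06 to 0.11 (log2). The causes of these changes were not tested, except that fewer or more genes tested follow from the filters.

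The labels give replicates of different times only a number in common. Deviations of replicate 1 correlated between times at -0.20 to 0.44, with a median of 0.17 and 10 of 15 pairs of times over 0.1. By this measure 10 of 12 arrays correlated best with their own number, a hint from the data. The 2 arrays of a time have mirrored deviations by construction, so they do not count separately. With the replicate block, 92 wave genes and 0 carbonic anhydrase genes passed (Car14 adjusted p = 0.0507), and 2 member probes did in the fit of every probe.

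CT12 minus CT0 changed sign for members that never passed it; the Car4 values rest on arrays not well above background and have no firm sign or size. Without CT0 replicate 2 it was -0.39 for Car2, -0.52 for Car4 and -0.25 for Car5b, and without CT12 replicate 2 it was -0.13 for Car4 and -0.44 for Car5b. Without CT0 replicate 1 it was 0.040 for Car8 and 0.095 for Car13, and without CT12 replicate 1 it was 0.024 for Car8 and 0.11 for Car13. Over all fits with 1 array left out it ran from -0.39 to 0.53 for Car2, -0.52 to 1.17 for Car4, -0.44 to 0.54 for Car5b, -0.23 to 0.040 for Car8 and -0.13 to 0.11 for Car13. Car4 was at -0.066 with normexp and -0.015 in the authors' table, and Car13 at 0.029 with normexp, 0.012 with quantile scaling and 0.049 in the authors' table. Each time lies on 1 slide, so CT12 minus CT0 has no value with slide as a block, and the any-difference test none with it as a random block; Car4 has no value under the filter on all 12 arrays.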

Other observations

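The array also held 6 carbonic anhydrase genes outside the 10, none of which passed the wave test among the 4 tested, beside 0.620% of all genes. Car7, a cytosolic enzyme known from neurons, was well above background on all 12 arrays with levels of -1.21 to -0.49, and its fitted wave peaked at CT23.7, 1.37-fold above the trough (limma adjusted p = 0.213, unadjusted p = 0.0157). Car1, the red blood cell enzyme, was measured on all 12 arrays at -4.60 to -4.01 (1.26-fold fitted wave, adjusted p = 0.455), and Car15, a membrane-anchored enzyme of the mouse, at -5.22 to -2.69 (adjusted p = 0.859). Car5a, the liver mitochondrial enzyme, was well above background on 4 arrays (adjusted p = 0.552), the secreted Car6 on 1 array, and both probes of Car10, a relative without catalytic activity, on 0 arrays.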
